A study of Mus musculus with 6 samples.

Results

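The high mobility group (HMG) chromatin protein genes were read in the livers of mice overdosed with acetaminophen (APAP) and of saline controls. The members were the 7 genes Hmga1, Hmgb1, Hmgb2, Hmgb3, Hmgn1, Hmgn2 and Hmgn3, each found as 1 row among the 34745 gene rows of the expression table by its gene symbol. They were chosen with earlier results of the same APAP and saline counts known, so their differences between the groups are given as a description. Counts of members past a threshold stand beside the share of all genes past it, and nothing is read from them.

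RNA was sequenced from liver tissue of WT mice, which the Methods describe as male C57BL/6J mice aged 8 to 10 weeks. After a fast of 12 hours the mice received APAP (300 mg/kg, intraperitoneally) for 12 hours or saline. The labels list 3 livers per group. The APAP libraries of replicates 1 and 3 were analysed, APAP replicate 2 was not analysed here, and the libraries WT1, WT2 and WT3 were taken for saline, given that only the remaining columns carry APAP in their names.

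HMG proteins are small and abundant nuclear proteins that bind DNA or nucleosomes and change how chromatin is folded. HMGA proteins hold AT-hooks, which bind the minor groove of AT-rich DNA. HMGB proteins hold HMG boxes, which bend DNA, and HMGN proteins bind the nucleosome core and counteract linker histones. HMGB1 also has a role outside the cell. It is released from necrotic hepatocytes after APAP and then acts as an alarmin through receptors such as RAGE and TLR4.

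Among the members, the mean Hmga1 mRNA level was 5.51 times as high in the APAP libraries as in the saline libraries, and the related Hmga2 was also higher. The mean level of Hmgb1 mRNA was 1.01 times that of saline. Hmgn2 and Hmgb2 were at 2.05 and 1.80 times the saline mean with low counts, and Hmgb3, Hmgn1 and Hmgn3 overlapped between the groups.

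The total count per library was 13378445 to 15976339, and a count of 3 corresponded to 0.176 to 0.269 CPM, the count scaled to the normalized size of its library. Of 13734 genes tested across the whole table, 508 were higher and 485 were lower with APAP at an adjusted p under 0.05 (edgeR's quasi-likelihood test). The saline libraries held Xist, the RNA of the inactive X chromosome, at 289 to 913 CPM against 0.762 and 1.73 CPM in the APAP libraries, while the Y-linked gene Uty was at 12.7 and 13.7 CPM with APAP and had no count in saline. Sex-linked genes thus divided the libraries in the same way as treatment, although the Methods name male mice only, and these 2 differences cannot be told apart in any value given below. Hepatocyte markers summed to 70039 and 114341 CPM with APAP and to 124146 to 168219.8 CPM with saline, as the most abundant mRNAs of liver. Neutrophil markers summed to 132.6 and 84.5 CPM with APAP against 5.71 to 9.61 CPM with saline. In whole tissue, fewer cells of a type and less RNA per cell cannot be told apart.

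HMG genes have many processed copies in the mouse genome, and for some members the letters of the transcript decide what a count can mean. Hmga1 lies on chromosome 17 (27556620 to 27563674, plus strand, GRCm38). Of the words of 50 bases in its longest coding transcript, 69.1% also occur in transcripts of other genes, so that reads from these stretches cannot be assigned to Hmga1 by their letters alone.

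Hmgb1 (chromosome 5, 149046702 to 149184489, minus strand) shared 40.9% of its words with transcripts of 132 genes, of which 13 had a row in the table analysed. The copy with the most counts was Hmgb1-ps2, a processed pseudogene on chromosome X whose aligned sequence matched the Hmgb1 coding sequence at 97.4% of 648 columns. Within the first 120 bases the copy differed by A21G, counted from 1 at the start codon with the base of Hmgb1 first. The capitals below mark this position.

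Hmgb1: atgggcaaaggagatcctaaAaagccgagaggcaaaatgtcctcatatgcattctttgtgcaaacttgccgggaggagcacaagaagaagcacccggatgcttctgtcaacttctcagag
Hmgb1-ps2: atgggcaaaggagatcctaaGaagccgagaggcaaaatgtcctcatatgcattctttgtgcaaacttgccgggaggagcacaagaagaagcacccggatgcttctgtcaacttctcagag

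The shared part was 67.1% for Hmgn2, 34.2% for Hmgb3, 21.9% for Hmgb2, 6.54% for Hmgn1 and 3.80% for Hmgn3. The members themselves were much less alike. Between coding sequences, Hmgb1 and Hmgb2 were identical at 75.0% of aligned columns, Hmgb1 and Hmgb3 at 70.4%, Hmgn2 and Hmgn3 at 61.0% and Hmgn1 and Hmgn2 at 57.3%. The uncertainty of the counts therefore lies with the copies more than with the members among each other, and it is greatest for Hmga1, Hmgn2 and Hmgb1. Whether the counting used strand is not given in the sources used here, and short stretches of exon overlap genes on the opposite strand at Hmga1 (AI413582 and Gm49774), Hmgb1 (Uspl1) and Hmgn3 (Gm2065 and Gm29054).

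Hmga1 encodes the AT-hook protein that is high in embryonic and proliferating cells and low in adult tissue. Its mRNA was at 21.5 and 24.9 CPM in APAP replicates 1 and 3 and at 6.90, 1.79 and 3.94 CPM in saline WT1, WT2 and WT3. Both APAP libraries lay above every saline library, and no other member differed by as much. The means were 23.2 ± 2.42 CPM (SD, n = 2) with APAP and 4.21 ± 2.56 CPM (SD, n = 3) with saline, a fitted log2 fold change of 2.47 with a standard error (SE) of 0.49. Hmga1 was the 1 member of 7 with an adjusted p under 0.05, where 7.23% of all genes tested were called. Since the members were chosen from this contrast, nothing is read from that count. The count stayed at 1 without saline WT1 and became 0 without any of the other 4 libraries, while the log2 fold change of Hmga1 stayed between 2.10 and 3.03 over 11 alternatives. How the counting divided reads from the sequence that Hmga1 shares with other genes was not tested.

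Hmga2, the related AT-hook gene of embryonic tissue, had 44 and 45 counts in the APAP libraries and none in the saline libraries. Its level was 2.58 and 2.78 CPM with APAP, and the mean of these values was at least 9.97-fold higher than the largest floor of 3 counts in a saline library. Its adjusted p was 0.0179 in edgeR's quasi-likelihood test and ranged from 1.8e-11 to 0.11 over 12 alternatives, since leaving out either APAP library or saline WT2 put it above 0.05. Hmga1 and Hmga2 were thus both higher in each APAP library than in any saline library.

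**Figure D1:**
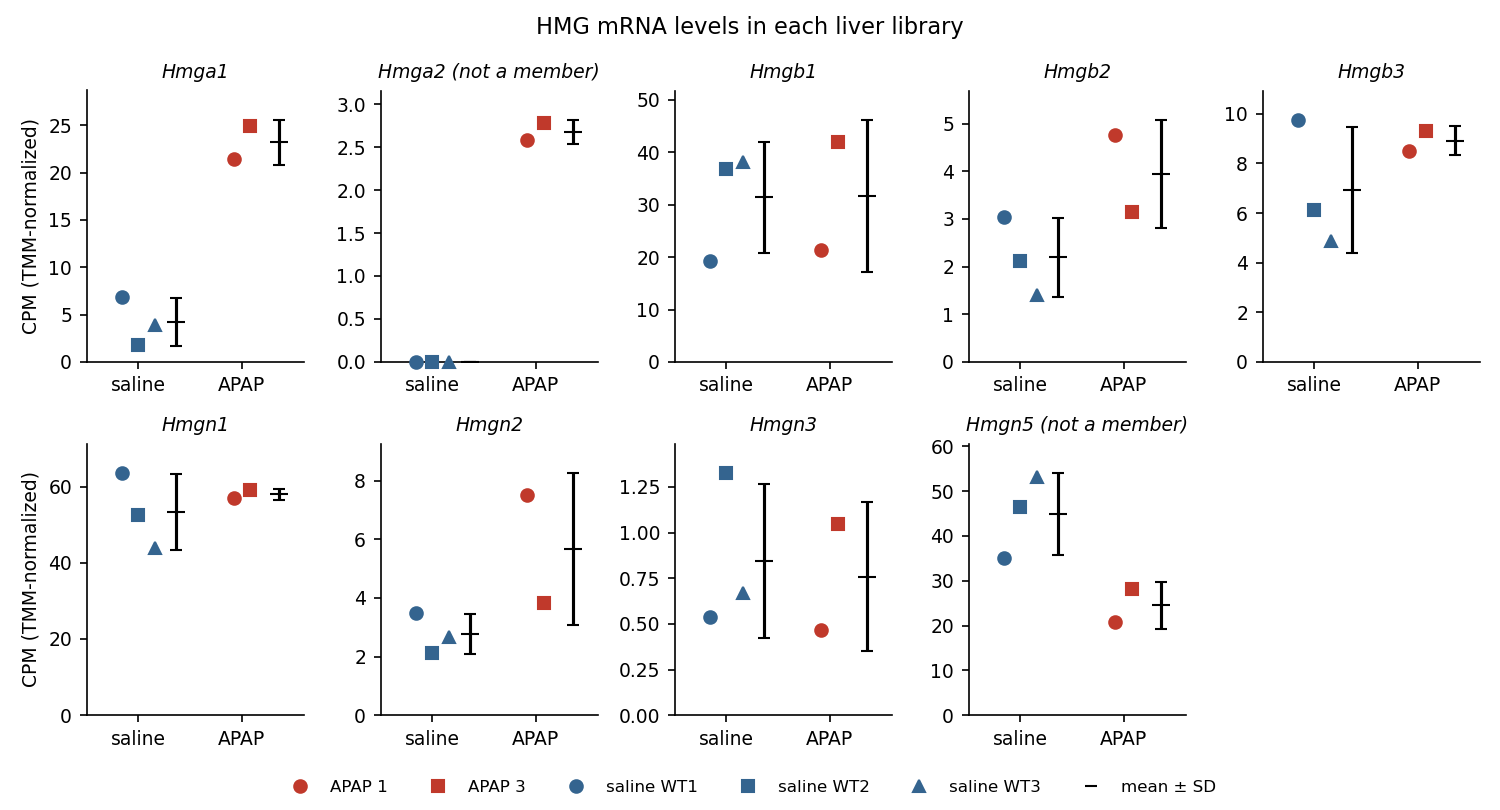
CPM normalized by TMM (y axes, linear, from 0) of the 7 HMG members and of Hmga2 and Hmgn5 in each saline (blue) and APAP (red) library, with the mean ± SD of each group beside the points. Hmga1 and Hmga2 stand apart from saline in both APAP libraries, whereas the points of Hmgb1, Hmgb3, Hmgn1 and Hmgn3 overlap between groups.

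The promoters of Hmga1 and Hmga2, from RefSeq (GRCm38.p6, 250 bases before to 50 after the start), are shown because both genes were higher with APAP. Capitals mark every match, on either strand, to 1 of 6 motifs. These were the E-box CACGTG, the NF-Y box CCAAT, the GC box GGCGGG, the cell cycle homology region TTTGAA, the heat-shock unit TTCNNGAA and the AP-1 site TGANTCA. Hmga1 has 2 starts in the table, whose windows overlap, and the window shown is at chr17:27556354-27556653 (plus strand), while that of Hmga2 is at chr10:120476420-120476719 (minus strand).

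Hmga1: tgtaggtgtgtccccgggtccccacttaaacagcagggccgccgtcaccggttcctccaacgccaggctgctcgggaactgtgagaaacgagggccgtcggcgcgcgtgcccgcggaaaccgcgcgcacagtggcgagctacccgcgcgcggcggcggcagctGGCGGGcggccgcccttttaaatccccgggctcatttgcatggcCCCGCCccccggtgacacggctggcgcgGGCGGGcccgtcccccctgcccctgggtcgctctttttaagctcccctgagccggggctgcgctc
Hmga2: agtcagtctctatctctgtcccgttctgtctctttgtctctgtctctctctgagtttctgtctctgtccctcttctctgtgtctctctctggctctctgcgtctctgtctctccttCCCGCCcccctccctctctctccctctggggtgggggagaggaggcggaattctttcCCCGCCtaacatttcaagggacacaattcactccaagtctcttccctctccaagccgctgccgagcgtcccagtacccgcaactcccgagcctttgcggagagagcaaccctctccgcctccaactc

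Hmga1 held 3 GC boxes, as did the window of its other start, and Hmga2 held 2, a motif present in 35.3% of the 32851 promoters of the same length. The other motifs were not found in these windows. Their GC content was 72.3% for Hmga1 and 57.7% for Hmga2. A match is a description of letters and not of a bound site.

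Hmgb1 encodes the HMG-box protein that serves as an alarmin. Its mRNA was at 21.4 and 42.0 CPM with APAP, against 19.3, 36.9 and 38.1 CPM with saline. Each group held 1 low library, APAP replicate 1 and saline WT1, and the ranges overlapped almost entirely. The means were 31.7 ± 14.6 CPM (SD, n = 2) and 31.4 ± 10.6 CPM (SD, n = 3), which gave a log2 fold change of 0.01 (SE 0.39), next to a median of 0.03 over all genes tested. Leaving out APAP replicate 1 gave 0.42 and leaving out APAP replicate 3 gave -0.56, so that its sign depended on which APAP library was kept. The SE is wide enough that a moderate change in either direction was not detectable with these libraries.

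Of the 12 named Hmgb1 copies in the table, 10 had counts. Hmgb1-ps2 alone was at 25.0 and 28.2 CPM with APAP, against 21.5, 21.6 and 15.9 CPM with saline. Both APAP libraries were above all saline libraries for this X-linked copy, with a log2 fold change of 0.44 (SE 0.22) and an adjusted p of 0.28 in edgeR's quasi-likelihood test. Together the copies held 59.8% and 46.8% of the summed counts of Hmgb1 and its copies with APAP and 57.7%, 42.4% and 35.3% with saline. The share was high in APAP replicate 1 and saline WT1, the libraries in which Hmgb1 itself was low. A low Hmgb1 count raises this share by itself, since Hmgb1 is part of the sum. The copies had 543 and 598 counts in APAP replicates 1 and 3 and 293, 409 and 312 counts in saline WT1, WT2 and WT3. Summed with these copies, Hmgb1 was at 53.3 and 78.9 CPM with APAP, against 45.5, 64.0 and 58.9 CPM with saline, and the log2 fold change was 0.24 (SE 0.26).

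Hmgb2 (chromosome 8, 57511843 to 57515999, plus strand) encodes the HMG-box protein of dividing cells. Its mRNA was at 4.75 and 3.15 CPM with APAP, against 3.05, 2.12 and 1.40 CPM with saline. The groups did not overlap, but the lower APAP library and the highest saline library were nearly level, and the counts behind them were only 51 and 34. The log2 fold change was 0.86 (SE 0.46), between 0.53 and 1.30 over the alternatives. Hmgb3 (chromosome X, 71555918 to 71560676, plus strand), a paralog known from blood stem cells, was at 8.50 and 9.32 CPM with APAP, against 9.77, 6.11 and 4.87 CPM with saline. Its groups overlapped, since saline WT1 was the highest of all libraries, and the log2 fold change was 0.37 (SE 0.35). The related gene Hmgb4, known from the testis, had no count in any of the libraries.

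Cell cycle markers were read beside Hmgb2, because Hmgb2 mRNA is known to follow cell division. Their summed level was 68.4 and 66.6 CPM with APAP and 48.6 to 54.1 CPM with saline. Of 13 markers tested, 1 rose with an adjusted p under 0.05 and none fell, where 7.23% of all genes tested were called. The marker that rose was Mcm2, a subunit of the replicative helicase. It was at 8.45 and 5.43 CPM with APAP and 1.27 to 1.99 CPM with saline. Stmn1, a regulator of microtubules, was at 3.93 and 3.64 CPM with APAP and 5.73 to 7.74 CPM with saline (adjusted p = 0.169, edgeR). Of the 13, 8 had a positive log2 fold change, as had 7145 of the 13734 genes tested. Without overlap 4 of them were higher and 2 were lower, where 44.1% of all genes tested did not overlap. The median of the markers was 0.19, against 0.03 for all genes. Nothing is read from these counts. Mki67, the usual marker of dividing cells, was at 3.70 and 1.98 CPM with APAP and 0.269 to 2.19 CPM with saline. The part of dividing cells in the Hmgb2 values was not tested.

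The promoters of Hmgb2 and Hmgb3 held the letters that are common before cell cycle genes. Hmgb2 had 4 CCAAT boxes and 2 cell cycle homology regions, and Hmgb3 had 3 and 1. The CCAAT box occurred in 37.4% and the homology region in 17.9% of all promoters. Of the other members with a promoter in the table, Hmgn1 held 2 CCAAT boxes and 4 GC boxes, Hmgn2 held 1 and 2, and Hmgb1, with 2 starts, held 3 CCAAT boxes at 1 start and none at the other. The E-box (7.15% of all promoters) was found once in Hmgn2 and once at 1 start of Hmgb1, and none of the promoters searched held the heat-shock unit (8.52% of all promoters) or the AP-1 site (7.81% of all promoters).

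Hmgn1 (chromosome 16, 96120618 to 96127729, minus strand) encodes a nucleosome-binding protein. It was at 57.0 and 59.0 CPM with APAP, against 63.6, 52.5 and 43.8 CPM with saline. The APAP values lay within the saline range. The means were 58.0 ± 1.43 CPM (SD, n = 2) and 53.3 ± 9.93 CPM (SD, n = 3), and the log2 fold change of 0.12 (SE 0.22) had the smallest SE of the members.

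Hmgn2 (chromosome 4, 133964738 to 133968650, minus strand) was at 7.51 and 3.83 CPM with APAP, against 3.49, 2.12 and 2.67 CPM with saline. The groups did not overlap, though APAP replicate 3 was close to saline WT1. The log2 fold change was 1.04 (SE 0.42) and became 0.48 without APAP replicate 1, so that 1 library decided its size. Its near copy Gm10282, which holds all the Hmgn2 words that are shared, had 92 and 23 counts with APAP and 15, 21 and 14 with saline. APAP replicate 1 was thus the high library for both rows. Summed with the rows of Gm10282 and Hmgn2-ps1, a sum that was chosen after the data had been seen, Hmgn2 was at 14.7 and 6.18 CPM with APAP, against 5.38, 4.18 and 3.87 CPM with saline.

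Hmgn3 (chromosome 9, 83109948 to 83146685, minus strand), a member known from endocrine and nervous tissue, was close to the limit of counting. It had 8 and 17 counts with APAP and 6, 20 and 10 counts with saline, or 0.469 and 1.05 CPM against 0.538, 1.33 and 0.668 CPM. The groups overlapped and the sign of its log2 fold change (-0.17, SE 0.69) turned under scaling to library size only (0.16) and without APAP replicate 1 (0.30). Hmgn5, an X-linked relative, was at 20.8 and 28.2 CPM with APAP, against 35.1, 46.5 and 53.2 CPM with saline. Both APAP libraries were below every saline library, with a log2 fold change of -0.88 (SE 0.26) and an adjusted p of 0.0948 in edgeR's quasi-likelihood test.

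Over all members, APAP and saline libraries did not overlap for 3 of 7 (Hmga1, Hmgb2 and Hmgn2, all higher with APAP), where 44.1% of all genes tested did not overlap. By the looser rule of an unadjusted P under 0.05 with a fold change of at least 1.5, 2 of 7 members were called (Hmga1 and Hmgn2) and 23.5% of all genes tested. The median log2 fold change of the members was 0.37 and that of all genes was 0.03. Nothing is read from these counts, since the members were chosen with the contrast known.

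**Figure D2:**
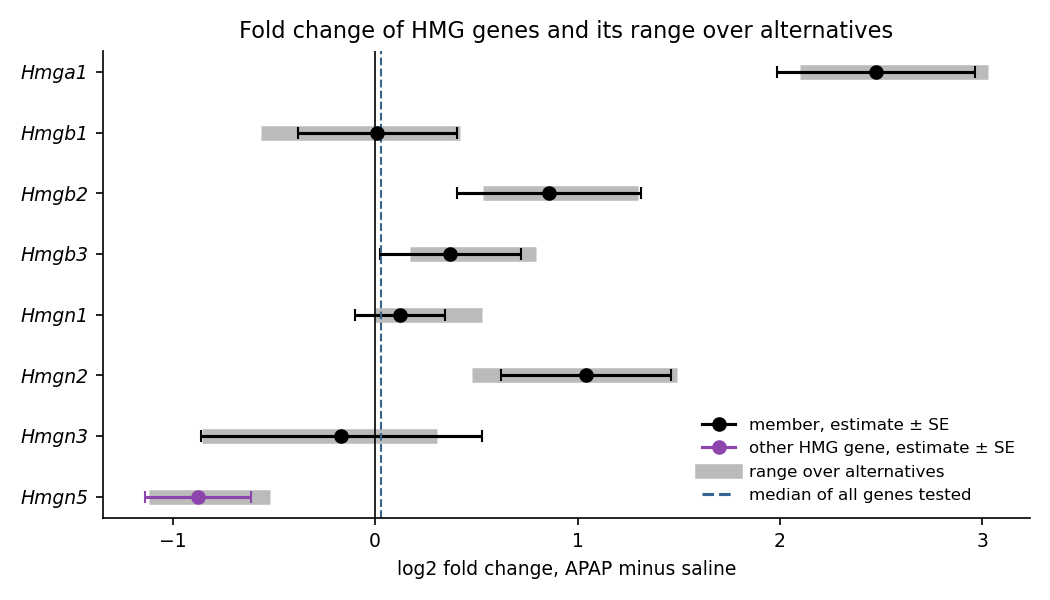
Log2 fold change of APAP minus saline (x axis) of the HMG members (black) and of Hmgn5 (purple), as points with SE, and the range over the alternatives as grey bars. Hmga1 at 2.47 lies far to the right, Hmgb1 at 0.01 lies on the median of all genes (dashed line, 0.03), and the grey bars of Hmgb1 and Hmgn3 extend to both sides of 0.

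**Figure D3:**
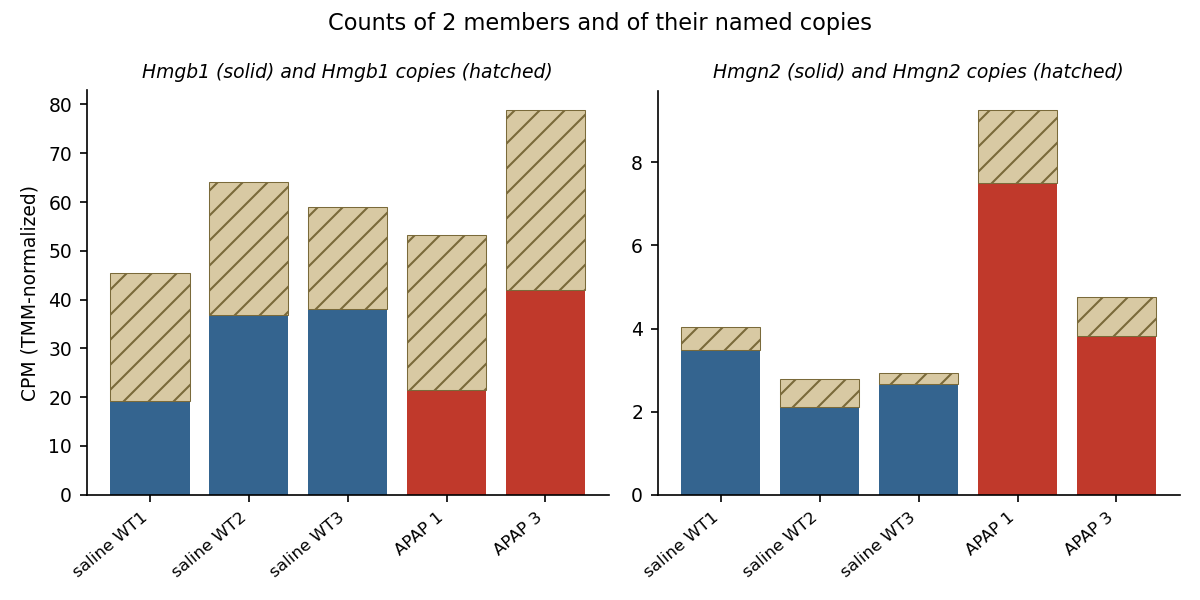
CPM (y axes, linear) of Hmgb1 and Hmgn2 in each library (solid bars) with the CPM of their named copies stacked on top (hatched). The stacks of Hmgb1, at 53.3 and 78.9 CPM with APAP and 45.5 to 64.0 CPM with saline, overlap between groups.

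Levels can be compared between genes only per length, here as CPM per kilobase of exon. Exon lengths are from GENCODE M21, in which the start or end of Hmga1 and Hmgb2 differs from the expression table. The lengths of these members may thus differ from those of the gene models counted. In saline, Hmgn1 was at 16.5 ± 3.08, Hmgb1 at 6.26 ± 2.10, Hmgb3 at 3.10 ± 1.14, Hmga1 at 1.98 ± 1.21, Hmgn2 at 0.903 ± 0.225, Hmgb2 at 0.729 ± 0.274 and Hmgn3 at 0.452 ± 0.227 CPM per kilobase (SD, n = 3 each). By the member rows alone, without copies, only Hmgn1 stood clear of its neighbour in this order. Its lowest library was at 13.6 against a highest Hmgb1 library of 7.59. All the other neighbours overlapped in their saline libraries. In the APAP libraries Hmga1 was at 10.1 and 11.7 CPM per kilobase, above the Hmgb1 row at 4.26 and 8.36. This was the reverse of the order of their saline means. The Hmgb1 row leaves out its named copies, which held 59.8% and 46.8% of the summed counts with APAP. With saline they held 57.7%, 42.4% and 35.3%. Levels per length with the copies were not computed, so the order holds for the Hmga1 and Hmgb1 rows alone. Hmga1 shared 69.1% of its words with other genes, against 40.9% for Hmgb1, and no sum with copies was made for Hmga1. The order also depended on the length used. Per length of the longest coding transcript, Hmga1 was at 10.7 and 12.4 and Hmgb1 at 7.54 and 14.8 CPM per kilobase with APAP, so that Hmgb1 was above Hmga1 in APAP replicate 3, and Hmgn2 and Hmga1 changed places in the saline order.

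**Figure D4:**
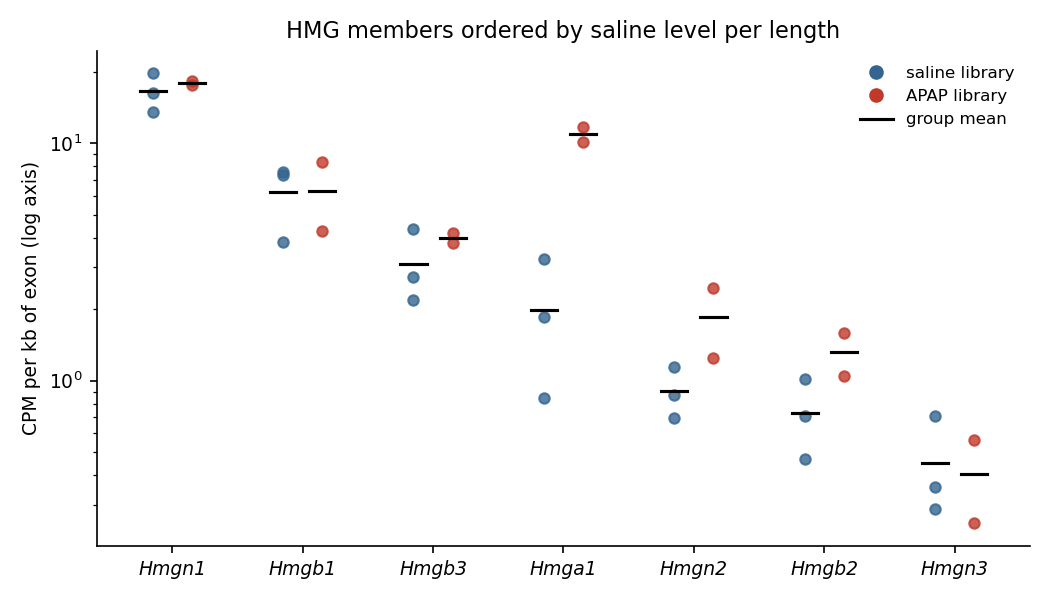
CPM per kilobase of exon (y axis, log scale) of the 7 members in each saline (blue) and APAP (red) library, ordered by the saline mean (black bars are group means). Hmgn1 is the highest in every library, and Hmga1 moves from a saline mean of 1.98 to an APAP mean of 10.9.

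The genes whose pattern over the 5 libraries was most like that of Hmgb1 were Zfp451, Gm6484 and Cep85l, out of 7892 genes that averaged 10 CPM or more. Their root mean square difference from Hmgb1 in centred log2 CPM was 0.10, 0.14 and 0.16. All shared the low values of APAP replicate 1 and saline WT1, as in Zfp451 at 14.7 and 26.7 CPM with APAP and 11.1, 20.97 and 22.2 CPM with saline. For Hmgb2 they were Gm8883, Tgm2 and Esd (0.05, 0.13 and 0.15), with Tgm2 at 233 and 145 CPM with APAP and 140.03, 113 and 84.8 CPM with saline. Such a likeness over 5 libraries is a description of the libraries only.

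Among receptors, binders and adaptors of extracellular HMGB1, Cd14 and Trem1 were higher and Cxcl12 was lower with APAP. Of 13 genes tested in this list, 2 rose, 1 fell and 10 did not pass the test (adjusted p under 0.05, edgeR's quasi-likelihood test). Of all genes tested, 7.23% were called. The median log2 fold change of the list was 0.65 against 0.03 for all genes. The list was written with earlier results known.

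Cd14, the co-receptor that hands ligands to TLR4, was at 206 and 52.2 CPM with APAP, against 5.55, 2.85 and 13.9 CPM with saline. Both APAP libraries exceeded all saline libraries, by a log2 fold change of 4.11 (SE 0.78, adjusted p = 0.0292, edgeR). The log2 fold change was 2.81 without APAP replicate 1, 4.78 without APAP replicate 3 and 4.95 without saline WT3, and the call was lost without APAP replicate 1, saline WT1 or saline WT2. Trem1, an amplifying receptor of neutrophils and monocytes, had 63 and 51 counts with APAP and 0, 3 and 2 with saline, a ratio of 28.3 (95% exact interval of the counts 11.8 to 88.7) and an adjusted p of 0.0179 in edgeR's quasi-likelihood test. That interval covers counting error only. Its call was lost without either APAP library or saline WT2, and its log2 fold change of 4.76 became 5.37 without saline WT2.

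Cxcl12, the chemokine that forms a complex with HMGB1, was at 132 and 136 CPM with APAP, against 456, 340 and 388 CPM with saline. Both APAP libraries were far below saline, and Cxcl12 fell by 1.56 on the log2 scale (SE 0.25, adjusted p = 0.0187, edgeR), a call lost without either APAP library or saline WT2. Tlr4 was at 3.64 and 4.20 CPM with APAP and 1.19 to 2.07 CPM with saline and did not pass the test (adjusted p = 0.116, edgeR). The defining receptor RAGE (Ager) stayed at or below 1.13 CPM in every library.

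Among the genes that modify HMGB1 or take part in its export and release, Mlkl was higher with APAP. Of 16 genes tested, 1 rose, none fell and 15 did not pass the test, where 7.23% of all genes tested were called, and the median log2 fold change was 0.27. Mlkl, the executor of necroptosis, rose from 3.58, 2.06 and 1.87 CPM with saline to 17.1 and 19.1 CPM with APAP (log2 fold change 2.86, SE 0.34, adjusted p = 0.00702, edgeR), a call lost without saline WT2 (adjusted p = 0.0521, edgeR). Kat2b, an acetyltransferase of HMGB1 and the gene with the highest CPM of the list (not corrected for length), was at 72.1 and 80.7 CPM with APAP and 111.6, 126 and 110.4 CPM with saline (adjusted p = 0.131, edgeR). Xpo1, the exportin that carries HMGB1 out of the nucleus, was at 48.4 and 40.8 CPM with APAP and 18.8 to 29.9 CPM with saline (adjusted p = 0.0737, edgeR).

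Of 28 tested genes with an HMG box outside the HMGB family, 1 rose, none fell and 27 did not pass the test. Of all genes tested, 7.23% were called. The median log2 fold change of the list was 0.11. Sox9, the transcription factor of bile ducts and of hepatocytes that take on ductal features, was at 32.4 and 35.0 CPM with APAP and 3.23, 4.65 and 4.27 CPM with saline (log2 fold change 3.05, SE 0.24, adjusted p = 0.00194, edgeR). It stayed called in all 13 alternatives. The sum of the cholangiocyte markers was also higher, at 314 and 320.1 CPM with APAP against 43.4 to 47.3 CPM with saline. Spp1 was the 1 of 4 with an adjusted p under 0.05 and also the bulk of the sum. All 4 markers were higher in each APAP library than in every saline library, where 44.1% of all genes tested did not overlap. Unlike Sox9, Krt19 was far higher in APAP replicate 1 than in APAP replicate 3, where it was close to the highest saline library. The median log2 fold change of these markers was 2.47. Their part in the Sox9 and Hmga1 values was not tested. Hbp1, a repressor of the cell cycle with the highest CPM in the list (not corrected for length), was at 78.2 and 91.6 CPM with APAP and 82.3, 78.3 and 109 CPM with saline. The general HMG-box proteins Ssrp1, Ubtf, Tfam and Smarce1 had log2 fold changes between -0.01 and 0.19.

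Linker histones compete with HMGN and HMGB proteins for nucleosomes. The 2 genes tested were H1f0, the linker histone of resting cells, at 84.8 and 61.3 CPM with APAP and 138, 139 and 157 CPM with saline, and Hist1h1c, at 15.8 and 18.2 CPM with APAP and 33.9, 56.0 and 29.3 CPM with saline. Both were lower in each APAP library than in every saline library, where 44.1% of all genes tested did not overlap. Neither passed the test with edgeR (adjusted p = 0.0565 and 0.0702). Both had an unadjusted P under 0.05 with a fold change of at least 1.5, as had 23.5% of all genes tested. With DESeq2 both were called, as were 2093 of the 13734 genes tested. Nothing is read from these counts. The call of H1f0 depended on the filter and the tool, since its adjusted p was under 0.05 in 4 of 13 alternatives. The other 5 linker histone genes in the table were at or below 0.358 CPM in every library. How fully the mRNA-Seq kit captures linker histone transcripts was not tested, so low values need not mean low expression.

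Cytokine genes were taken from the qPCR panel of the study. Of 5 such genes 3 were tested, of which 1 rose and none fell, where 7.23% of all genes tested were called. Cxcl2, a chemokine for neutrophils, had 290 and 72 counts with APAP and 1 count in each saline library, a ratio of 149.6 (95% exact interval of the counts 50.8 to 729) and an adjusted p of 0.00569 in edgeR's quasi-likelihood test. The log2 fold change of Cxcl2 was 7.05, and it became 5.77 without APAP replicate 1 and 7.70 without APAP replicate 3. Ccl2, a chemokine for monocytes, was at 3.81 and 4.14 CPM with APAP and 2.51, 0.929 and 0.334 CPM with saline and did not pass the test (adjusted p = 0.21, edgeR). Il1b was at 5.04 and 6.42 CPM with APAP and 5.46, 1.19 and 3.40 CPM with saline and overlapped. Tnf and Il6 were too low to be tested.

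Markers of other cells were read beside these values and are given for the whole lists. Their counts stand beside the 7.23% of all genes tested that were called. Of 10 neutrophil markers tested, 8 rose, none fell and 2 did not pass the test, and Ly6g was at 0 in every saline library. Of 12 monocyte and macrophage markers, 1 rose (Ccr2) and the sums overlapped at 305 and 572 CPM with APAP and 327 to 450.0 CPM with saline. Of 9 stellate cell markers 1 rose (Col1a1), with sums of 359 to 395 CPM with APAP and 354 to 401 CPM with saline. None of 9 endothelial and none of 8 lymphocyte markers passed the test with edgeR or with DESeq2 (1 in each list had an unadjusted P under 0.05), with endothelial sums of 175 and 263 CPM with APAP and 174 to 267 CPM with saline and lymphocyte sums of 8.27 and 9.76 CPM with APAP and 9.41 to 13.8 CPM with saline. Of 7 hepatocyte markers 1, Cyp2e1, fell with an adjusted p under 0.05. Of the 7, 6 were lower in each APAP library than in every saline library, where 44.1% of all genes tested did not overlap. The median log2 fold change of these markers was -0.90, and 1 of them had a positive value. The part of neutrophils and other cells in the values of Hmga1, Hmgb2, Hmgn2, Cd14 and Trem1 was not tested.

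**Figure D5:**
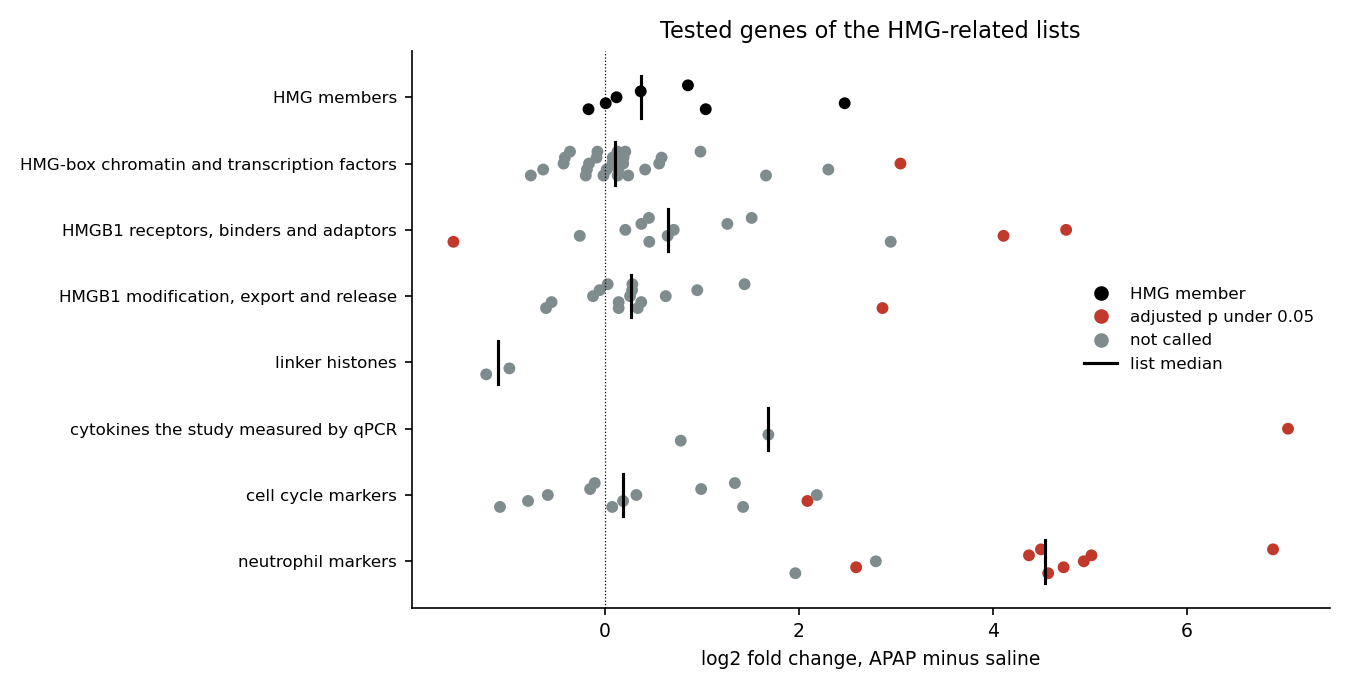
Log2 fold change of APAP minus saline (x axis) of the tested genes of the HMG-related lists, 1 point per gene (red, adjusted p under 0.05; grey, not called; black, the HMG members; black bars, list medians). Among the HMG-box and HMGB1 lists Sox9, Cd14, Trem1, Mlkl and Cxcl12 are the genes called, genes such as Cd24a (2.95) and Tox2 (2.31) lie far from 0 without being called, and the neutrophil markers lie mostly above 4.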

How the data were processed

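RNA of mouse livers was made into libraries with a SMARTER mRNA-Seq kit, per the labels, and sequenced by the authors on an Illumina NovaSeq, and read counts per gene were obtained with HISAT2. The authors deposited raw counts, without normalization, and FPKM from StringTie. The 5 columns of per-sample FPKM were not used. The submitters' processing notes name GRCm38 and mm10. The annotation, strand setting and program versions are not given in the sources used here. Coordinates are those of the deposited table.

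APAP and saline counts were compared with edgeR 4.0.16 under R 4.3.3 (filterByExpr with minimum count 10 and minimum total 15, TMM, quasi-likelihood test, Benjamini-Hochberg adjustment over 13734 genes) and checked with DESeq2 1.42.0. The script was tested on simulated data. The total count per library was 13378445 to 15976339, and floors and intervals cover counting error only. The Methods state biological repeats for all experiments in general, and the p-values measure the spread between these libraries. WT1 to WT3 are names only and pair with no APAP library.

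The members and the lists were chosen with earlier results of these data known. The genes named are the 7 members, up to 4 genes per list with an adjusted p under 0.05 or the highest CPM, and the 3 genes of nearest pattern to Hmgb1 and to Hmgb2 (log2 of CPM plus 0.1). Genes named beyond this rule (Tlr4, Ager, Xpo1, Ssrp1, Ubtf, Tfam, Smarce1, Hist1h1c, Mki67, Stmn1, Cd24a, Tox2, Ccl2, Il1b, Tnf, Il6 and the marker genes) were chosen after their values were seen. Shared sequence was the percent of words of 50 bases of the longest coding transcript in GENCODE M21 found in transcripts of other genes. Words were matched letter for letter, on either strand, without alignment. Coding sequences were aligned with each other, and that of Hmgb1 with the Hmgb1-ps2 transcript, with Biopython 1.88. Promoters are from RefSeq. The alternatives were DESeq2 size factors, scaling to library size only, a filter of 1 count in any library, at least 10 counts in every library, DESeq2, the likelihood ratio test, sums with named copies, each library left out, other lengths and, added after the data had been seen, sums with every row of which at least 50% of the words occur in the member. A gene that shares sequence with Hmga1 is not reported here, and no sum with copies was made for Hmga1.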

Additional observations from a re-analysis of the deposited data

How the results depend on the processing

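The number of genes with an adjusted p under 0.05 (993) became 2093 with DESeq2 and 1835 with the likelihood ratio test, and lay between 165 (without saline WT2) and 922 (without saline WT3) when 1 library was left out, with 235 without APAP replicate 1, 401 without APAP replicate 3 and 510 without saline WT1. Under the other alternatives it stayed within 1.5 times. No sum with copies was made for Hmga1. The number of members called (1) lay between 0 and 1 when 1 library was left out. Scaling to library size only moved the median log2 fold change of all genes from 0.03 to 0.42 and the share of calls that were higher with APAP from 51.2% to 77.8%, and so moved the members upward together (Hmgb3 to 0.79, Hmgn1 to 0.53). Relative to that shift Hmgb1, at 0.33, was below the median. Of the values of member fold changes under alternatives, 83 moved by less than the member's own SD between libraries of a group (log2 CPM) and 4 by more. A member with a wide spread stays within this limit more easily. Hmgb1, with an SD of 0.60, stayed within it at 0.42 without APAP replicate 1 and at -0.56 without APAP replicate 3. The count is therefore not a measure of stability. With DESeq2 more genes were called among the HMG-box factors and the HMGB1 export and release genes (2 higher and 1 lower in each list, in place of 1 higher), the HMGB1 receptors, binders and adaptors (3 higher in place of 2), Hmga2 and Hmgn5 (1 lower in place of 0), the linker histones (2 lower in place of 0), the hepatocyte markers (4 lower in place of 1) and the cell cycle, monocyte and macrophage, stellate and cholangiocyte markers (3 higher in each list, in place of 1). The small difference of Hbp1 (-0.083) turned under library size only (0.30) and lay between -0.21 and 0.080 when 1 library was left out, above 0 without APAP replicate 1 (0.030) and without saline WT3. The cause was not tested. Hmgn3 was not tested with at least 10 counts in every library or without saline WT2. Per length of the longest coding transcript the saline levels of Hmgb1, Hmgn1 and Hmgn2 became 11.1, 24.5 and 2.18 CPM per kilobase, and those of the other 4 members stayed within 1 SD. No paired analysis was possible because the saline libraries carry no sample number that matches the labels.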

Other observations

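Hmgb1-rs16, a processed copy that shares 0.143% of the Hmgb1 words, had 5 and 28 counts in APAP replicates 1 and 3 and none in the saline libraries. It was too low to be tested. Cd24a, a binder of HMGB1 that dampens its signal and is also a ductal marker, was at 48.6 CPM in APAP replicate 1 and 5.56 CPM in APAP replicate 3, against 2.60, 3.92 and 3.94 CPM in saline (adjusted p = 0.07, edgeR). Krt19 showed the same order, at 23.6 and 2.72 CPM with APAP and 1.25 to 2.54 CPM with saline. Sox6, an HMG-box factor, was at 9.85 and 9.88 CPM with APAP and 18.4, 15.7 and 16.2 CPM with saline (adjusted p = 0.08, edgeR). These genes were chosen after their values were seen.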
